A study of Mus musculus with 16 samples.

Results

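Cardiomyocytes of DM-HFD mice exposed to linagliptin were compared with cardiomyocytes of DM-HFD mice exposed to vehicle, by the expression of genes and by the share that each transcript isoform took of its gene. The comparison holds 6 of the 16 libraries of the series, 3 with linagliptin and 3 with vehicle, all of which are included, and it covers the 11631 protein-coding genes and 23055 transcripts of the 2 deposited tables. DM-HFD mice, of strain C57BL/6 like the controls, had a high fat diet for 26 weeks and received streptozotocin, which destroys pancreatic beta cells, after 12 weeks of it. Their isolated cardiomyocytes were kept for 24 h with linagliptin at 9 nmol/L or with 0.1% DMSO. The other 10 libraries came from cells of control mice about 8 weeks old, 5 with linagliptin and 5 with vehicle, and are used only to set the same genes and isoforms side by side. Neither the labels nor the methods say which cultures came from separate mice, so the tests measure the spread between libraries. Expression is given as FPKM, sequenced fragments divided by the length of the transcript and by the total mapped in the library.

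Linagliptin inhibits dipeptidyl peptidase 4 (DPP-4), a cell-surface and soluble protease that removes the first amino acids from peptides such as the incretin hormone GLP-1 and the chemokine Cxcl12, and so ends or alters their signals. Cells in culture receive neither the incretins of the gut nor the change in blood glucose that the drug brings about in a patient. Most mouse genes give more than 1 mRNA through other start sites, splice sites or ends. Such isoforms can encode different proteins or the same protein with other untranslated ends, and a short-read assembler divides the fragments they share between them.

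The 6 libraries held cardiomyocyte RNA with varying amounts from other cells. All 12 cardiomyocyte markers were listed, and their summed FPKM was 8786 to 14799 with linagliptin and 9099 to 12389 with vehicle. Of the other cell types, 12 endothelial markers summed to 59.4, 218 and 96.0 FPKM with linagliptin, against 130, 80.3 and 122 with vehicle, and 11 of 12 macrophage and leukocyte markers to 73.9, 288 and 192 with linagliptin, against 170, 77.6 and 170 with vehicle. Linagliptin replicate 2 was highest for each of these, and also for red cell markers (437 FPKM, against 6.92 to 84.0 in the other 5 libraries) and fibroblast markers (94.3 FPKM, against 11.6 to 52.0). The first principal component took 55.3% of the variance, with linagliptin replicates 1 and 2 at its ends and the vehicle libraries between them. Ptprc, the leukocyte common antigen, was not listed. The part of these other cells in the results was not tested, and in bulk RNA fewer cells of a type cannot be told apart from less RNA per cell. The number of reads per library is not in the files, so depth is unknown; the FPKM of a library summed to between 326762 and 405458.

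The study called a gene where the fold change reached 1.5 and the unadjusted p did not exceed 0.05, and by these thresholds 73 of 11127 genes tested differed between linagliptin and vehicle (0.656%). Of these, 55 were higher with linagliptin (0.494%) and 18 lower (0.162%). The study itself used Ballgown and reported a smaller percent of genes altered by linagliptin in these cells. At a Benjamini-Hochberg adjusted p under 0.05 from limma 0 genes passed (0%), with 129 at an unadjusted p under 0.05. Ballgown was not run here, and its model was rebuilt in limma with unmoderated variances and a covariate for the library. With this rebuilt model, or with unmoderated variances alone, 0 genes passed the adjusted p. By the thresholds the rebuilt model gave 267 genes, 103 higher and 164 lower, and 8 of them were among the 73. All 3 linagliptin libraries lay above all 3 vehicle libraries in 630 genes (5.66%) and below them in 69 (0.62%). Among the 73 genes, 33 higher and 12 lower ones had libraries that did not overlap, which is partly fixed by the thresholds. Of the 73, 15 had means under 2 FPKM in both groups and 11 were gene models without a name. The call held without each of the 6 libraries in turn for 10 genes, namely Myh7, Tmem70, Scamp4, Adat3, Ramp2, Slc10a4, Paqr7, Gcdh, Umad1 and the gene model AL732309.1. Of the genes named by rule, 22 lost the call without linagliptin replicate 3 and 21 without vehicle replicate 1, where 30 and 37 genes passed in all, against 542 without linagliptin replicate 1. The split into higher and lower genes turned round with the scaling. It was 24 higher and 37 lower with median-of-ratios scaling, under which the median over all genes was 0.02 in place of 0.12, 25 and 34 when libraries were scaled without mitochondrial genes, 21 and 37 with quantile scaling, and 21 and 35 with trends over GC content and length removed, whereas TPM gave 179 and 8. The called genes named by rule kept their direction under these scalings, except mt-Co2.

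**Figure D1:**
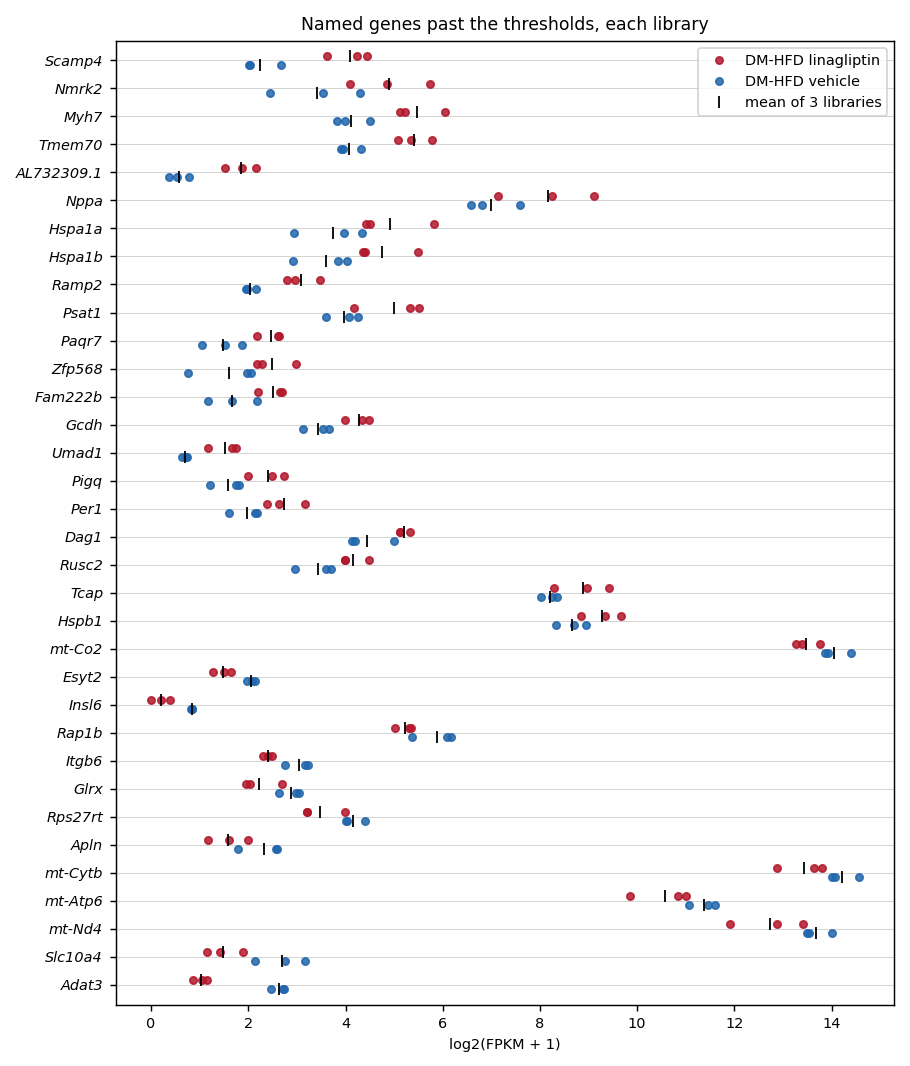
Expression as log2(FPKM + 1) of 34 named genes past the thresholds, 1 point per library and a bar at the mean, linagliptin above vehicle for each gene. Slc10a4, Insl6, Esyt2 and Itgb6 are lower with linagliptin without overlap, and Paqr7, Gcdh and Dag1 are higher without overlap.

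Single genes of metabolism were among the 55 higher ones. Gcdh, the mitochondrial dehydrogenase that breaks down lysine and tryptophan (GRCm38 chr8:84886393-84893921, minus strand), had 19.4, 15 and 21.3 FPKM with linagliptin, against 10.6, 11.6 and 7.77 with vehicle. The groups did not overlap, and the log2 fold change on the log2(FPKM + 1) scale was 0.83 (SE 0.22, adjusted p = 1.00 from limma). Slc6a9, a glycine transporter, had 8.70, 15.5 and 17.6 FPKM with linagliptin, against 3.90, 5.73 and 10.6 with vehicle, with linagliptin replicate 1 inside the vehicle range. Gpd1, which reduces dihydroxyacetone phosphate to glycerol 3-phosphate, had 33.8, 31.9 and 48.3 FPKM with linagliptin, against 12.3, 34.5 and 18.4 with vehicle. Qdpr, which recycles the tetrahydrobiopterin that nitric oxide synthases need, had 25, 32.3 and 32.7 FPKM with linagliptin, against 27.3, 13.1 and 14.3 with vehicle. In Slc6a9, Gpd1 and Qdpr the groups overlapped, and for each gene the call depended on 4 of the 6 libraries. Amdhd2, an enzyme of amino sugar metabolism, had 3.06, 4.78 and 4.5 FPKM with linagliptin, against 2.22, 2.39 and 2.25 with vehicle, and Selenbp1, which oxidises methanethiol, had 14.8, 22.4 and 18.2 FPKM with linagliptin, against 11.1, 13.8 and 10.3 with vehicle; neither overlapped, and both lost the call without linagliptin replicate 2 or 3 or vehicle replicate 3. Ckb, the brain type of creatine kinase, was at 4.34, 6.78 and 9.56 FPKM with linagliptin, against 3.51, 4.30 and 3.66 with vehicle.

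Other genes past the thresholds encode receptors, transcription factors and a clock protein. Paqr7, a membrane receptor for progestins (chr4:134496697-134510235, plus strand), had 3.51, 5.16 and 5.08 FPKM with linagliptin, against 2.67, 1.87 and 1.06 with vehicle. It did not overlap and had a log2 fold change of 0.98 (SE 0.26, adjusted p = 1.00 from limma). Thra, a nuclear receptor for thyroid hormone, had 7.92, 10.8 and 8.97 FPKM with linagliptin, against 5.01, 6.59 and 5.30 with vehicle (log2 fold change 0.62, SE 0.20). Per1, a repressor within the circadian clock, had 4.24, 5.20 and 8.04 FPKM with linagliptin, against 2.06, 3.39 and 3.53 with vehicle, and lost its call without linagliptin replicate 3 or vehicle replicate 1. Neither Thra nor Per1 overlapped, and Thra lost its call without linagliptin replicate 2 or vehicle replicate 1 or 3. Bcl2l1, which encodes the survival factor Bcl-xL, had 4.5, 9.28 and 9.83 FPKM with linagliptin, against 2.65, 4.87 and 3.95 with vehicle, with 1 linagliptin library below the highest vehicle library. Cic, a transcriptional repressor, had 4.20, 7.09 and 5.69 FPKM with linagliptin, against 2.00, 3.63 and 4.21 with vehicle, and overlapped by that last vehicle library. Cbfa2t2, a transcriptional corepressor, had 1.96, 1.42 and 0.922 FPKM with linagliptin, against 0.225, 0.726 and 0.491 with vehicle, low values on which the added 1 FPKM weighs.

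Further single genes past the thresholds encode proteins of the cell membrane, the nuclear envelope and the sarcomere. Of 26 sarcomere genes tested 1 passed, against 0.656% of all genes. Dag1, the dystroglycan that links the cytoskeleton to laminin outside the cell (chr9:108204634-108263958, minus strand), had 39.4, 34.0 and 33.7 FPKM with linagliptin, against 16.6, 30.7 and 17.3 with vehicle. Its log2 fold change was 0.75 (SE 0.26), and the call ended without vehicle replicate 1 or 3. Unc45b, a chaperone that folds muscle myosin, had 43.7, 33.7 and 37.0 FPKM with linagliptin, against 17.5, 35.1 and 21.4 with vehicle, where vehicle replicate 2 reached the linagliptin range. Tcap, telethonin of the Z-disc, had 501, 310 and 686 FPKM with linagliptin, against 258, 326 and 303 with vehicle, and linagliptin replicate 2, the library with the lowest cardiomyocyte marker sum, lay inside the vehicle range. Plpp7, a protein of the nuclear envelope, had 18.4, 15.4 and 19.1 FPKM with linagliptin, against 8.51, 11.5 and 12.1 with vehicle, and lost the call only without vehicle replicate 1. Pigq, which acts in the first step of GPI anchor synthesis, had 2.96, 4.65 and 5.61 FPKM with linagliptin, against 1.31, 2.37 and 2.52 with vehicle. Rusc2, Fam222b, Zfp568 and Umad1 were also higher without overlap, with log2 fold changes of 0.73, 0.84, 0.89 and 0.82. For Umad1 the values were 2.35, 1.25 and 2.15 FPKM with linagliptin, against 0.671, 0.557 and 0.657 with vehicle.

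The heat shock genes Hspa1a and Hspa1b, which encode the inducible Hsp70, and Hspb1, which encodes a small chaperone of the Z-disc and cytoskeleton, were among the higher genes. Hsf1, the factor that induces such chaperones, binds inverted repeats of the 3 bases GAA, and the 250 bases before the start of each of the 3 genes are shown to place such a pair of repeats. They were taken from RefSeq (GRCm38.p6) at chr17:34972157-34972406 (minus strand) for Hspa1a, chr17:34959239-34959488 (minus strand) for Hspa1b and chr5:135887669-135887918 (plus strand) for Hspb1, and capitals mark GAANNTTC or TTCNNGAA, each of which reads the same on both strands.
Hspa1a: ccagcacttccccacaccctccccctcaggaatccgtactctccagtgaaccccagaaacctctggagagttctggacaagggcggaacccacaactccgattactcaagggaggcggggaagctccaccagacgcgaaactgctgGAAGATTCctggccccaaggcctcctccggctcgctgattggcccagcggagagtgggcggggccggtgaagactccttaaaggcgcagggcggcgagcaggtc
Hspa1b: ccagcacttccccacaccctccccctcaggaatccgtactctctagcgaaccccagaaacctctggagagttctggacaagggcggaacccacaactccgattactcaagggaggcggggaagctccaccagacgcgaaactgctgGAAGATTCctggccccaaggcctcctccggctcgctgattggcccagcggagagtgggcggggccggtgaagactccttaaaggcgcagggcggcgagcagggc
Hspb1: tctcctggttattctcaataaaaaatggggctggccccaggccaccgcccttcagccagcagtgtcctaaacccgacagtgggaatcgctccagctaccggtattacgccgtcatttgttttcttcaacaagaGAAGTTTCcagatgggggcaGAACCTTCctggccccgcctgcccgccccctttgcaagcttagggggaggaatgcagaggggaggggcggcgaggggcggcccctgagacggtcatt
The promoters of Hspa1a and Hspa1b had the same base at 247 of 250 positions, and in both the match began 104 bases before the start; that of Hspb1 had matches 117 and 97 bases before it. At least 1 match stood in the promoter of 6 of 22 genes of the heat shock list (27.3%) and of 6 of 39 genes called higher (15.4%) with a promoter in the table, against 3489 of all 27025 promoters of that length (12.9%). Hspa1a had 20.5, 21.8 and 55.2 FPKM with linagliptin, against 6.70, 14.7 and 19.3 with vehicle, and Hspa1b had 20.2, 19.6 and 44.2 FPKM with linagliptin, against 6.52, 13.5 and 15.4 with vehicle. The library pattern was the same in both, linagliptin replicate 3 highest and vehicle replicate 1 lowest, and either of these libraries, when left out, ended both calls; as near-identical copies they may share fragments and are uncertain as separate genes. Hspb1 had 460, 645 and 807 FPKM with linagliptin, against 319, 417 and 492 with vehicle, and the groups overlapped. Of the 28 heat shock chaperones tested, 23 had a log2 fold change above 0, against 74.8% of all genes, and these 3 passed the thresholds upward, against 0.494% of all genes. The other 5 ranged down to -0.33, the value of the co-chaperone Dnajb4. Among those that did not pass, and chosen after their values were seen, Hsph1, a nucleotide exchange factor of Hsp70, had 12.9, 10.8 and 11.5 FPKM with linagliptin, against 9.45, 9.07 and 8.58 with vehicle (0.34), and Hspe1, the mitochondrial Hsp10, had 120, 123 and 108 FPKM with linagliptin, against 94.8, 89.0 and 108 with vehicle (0.27).

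The lower genes were fewer. Slc10a4, a vesicular relative of the bile acid carriers (chr5:73006883-73012955, plus strand), had 1.66, 1.22 and 2.70 FPKM with linagliptin, against 5.78, 3.41 and 7.94 with vehicle, without overlap. Control cells held 1.32 FPKM with linagliptin and 1.21 with vehicle on average, nearer to the linagliptin libraries of DM-HFD cells in this gene. The lower genes did not share this. For Itgb6, Esyt2 and Apln, given below, control means lay nearer to the DM-HFD vehicle mean. They were 5.95, 3.79 and 8.05 FPKM with linagliptin, against 6.56, 2.75 and 6.53 with vehicle. Itgb6, the beta 6 integrin subunit, had 4.31, 3.92 and 4.57 FPKM with linagliptin, against 8.33, 5.75 and 7.96 with vehicle (log2 fold change -0.65, SE 0.20). Rap1b, a small GTPase of cell adhesion, had 39.5, 38.8 and 31.3 FPKM with linagliptin, against 67, 40.0 and 71.2 with vehicle, where vehicle replicate 2 was close to the linagliptin libraries. Both lost the call without vehicle replicate 1 or 3, and Rap1b also without linagliptin replicate 3. Esyt2, an extended synaptotagmin that tethers the endoplasmic reticulum to the plasma membrane, had 2.13, 1.83 and 1.43 FPKM with linagliptin, against 3.38, 3.24 and 2.93 with vehicle (log2 fold change -0.59, SE 0.19). Insl6, a hormone of the relaxin family, had 0.315, 0.150 and 0 FPKM with linagliptin, against 0.795, 0.789 and 0.760 with vehicle, all under 1 FPKM. Apln, the ligand of the apelin receptor, had 1.24, 2.98 and 2.05 FPKM with linagliptin, against 5.07, 2.44 and 4.90 with vehicle, and the groups overlapped.

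The direct target of the drug was not among the genes listed: Dpp4 was absent from the table, as were the related protease Fap, the incretin receptors Glp1r and Gipr, and the cGMP phosphodiesterase Pde5a. The relatives Dpp9, Dpp8, Dpp7 and Prep were present and did not pass the thresholds. Dpp9 had 9.20, 14.2 and 12.7 FPKM with linagliptin, against 7.22, 10.5 and 10.6 with vehicle (0.32, SE 0.24), Dpp8 had 6.22, 3.35 and 3.33 FPKM with linagliptin, against 3.0, 4.36 and 3.79 with vehicle (0.13, SE 0.26), and Dpp7 and Prep had log2 fold changes of 0.17 and 0.08. The DPP-4 substrate Cxcl12 had 3.54, 15.2 and 4.66 FPKM with linagliptin, against 8.65, 3.80 and 7.47 with vehicle, and its receptor Cxcr4 had 3.15, 7.56 and 5.12 FPKM with linagliptin, against 7.99, 2.72 and 9.02 with vehicle. Both were lowest in linagliptin replicate 1 and vehicle replicate 2, the libraries with the lowest endothelial marker sums, and the groups overlapped. Of the heart genes named whatever their values, Myh7, the slow myosin heavy chain of the fetal mouse ventricle, had 36.3, 65.4 and 33.8 FPKM with linagliptin, against 13.1, 21.7 and 14.9 with vehicle, without overlap (log2 fold change 1.36, SE 0.30). Nppa, the atrial natriuretic peptide, had 139, 556 and 304 FPKM with linagliptin, against 192, 111 and 95.0 with vehicle; it passed the thresholds (1.18, SE 0.48), the groups overlapped, and the call ended without linagliptin replicate 2 or 3 or vehicle replicate 2 or 3. Of the others, Nppb, the B-type natriuretic peptide, had 308, 149 and 305 FPKM with linagliptin, against 92.5, 393 and 131 with vehicle, and Ryr2, the calcium release channel, had 25, 10.1 and 18.0 FPKM with linagliptin, against 7.64, 19.2 and 12.3 with vehicle. Atp2a2, the calcium pump of the sarcoplasmic reticulum, had 771, 353 and 689 FPKM with linagliptin, against 357, 646 and 467 with vehicle, and Myh6, the adult myosin heavy chain, had 896, 368 and 842 FPKM with linagliptin, against 446, 701 and 558 with vehicle. In Ryr2, Atp2a2 and Myh6 linagliptin replicate 2 was the lowest of its group and vehicle replicate 2 the highest of its own. The cardiomyocyte marker sums shared these extremes, but Ryr2 and Myh6 are themselves among those markers. Linagliptin replicate 1 was the highest of its group in each of these genes, whereas linagliptin replicate 3 had the highest marker sum.

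Groups of genes were described by their counts and medians beside those of all 11127 genes, of which 8318 (74.8%) lay above 0 on the log2 scale (median 0.12). Of 26 sarcomere genes 25 lay above 0 (median 0.28), of 37 genes of serine synthesis and ATF4 targets 33 (median 0.27), of 19 clock genes 17 (median 0.25), of 23 genes of endoplasmic reticulum stress 21 (median 0.22) and of 35 genes of glucose use 29 (median 0.20). Of 22 fetal and stress genes of the heart 17 lay above 0 (median 0.30, and 0.17 with median-of-ratios scaling), and Myh7, Nppa and Nmrk2 passed the thresholds. With median-of-ratios scaling the medians of the sarcomere, serine, clock, endoplasmic reticulum and glucose lists were 0.14, 0.16, 0.15, 0.11 and 0.07, against 0.02 for all genes. With trends over GC content and length removed these medians were, in the same order, 0.10, 0.07, 0.04, 0.13 and 0.06, against 0.00 for all genes. Above 0 were then 23 of 26, 27 of 37, 11 of 19, 19 of 23 and 24 of 35, against 5574 of 11037 of all genes. In the sarcomere list Tcap alone passed the thresholds, in the serine list Psat1 and in the clock list Per1, and 0 genes of endoplasmic reticulum stress or glucose use did. Sel1l, which serves the degradation of misfolded proteins, had the highest value of the stress list, 28.1, 9.69 and 42.9 FPKM with linagliptin, against 2.1, 14.6 and 17.3 with vehicle (1.31, SE 0.73), and the spread kept it from the thresholds. Hk1, a hexokinase, did not overlap, at 23.3, 23.9 and 23.8 FPKM with linagliptin, against 9.48, 21.6 and 17.7 with vehicle (0.59, SE 0.29), and did not pass either. In the hypoxia list 15 of 23 genes lay above 0 (65.2%, against 74.8% of all genes), with a median of 0.15. With median-of-ratios scaling 12 of 23 lay above 0 (median 0.04). Of the 23 genes, 4 were higher in every linagliptin library, against 5.66% of all genes: Ramp2, Epas1, Ankrd37 and P4ha1. Epas1, the hypoxia-inducible factor 2 alpha, had 19.3, 20.5 and 17.9 FPKM with linagliptin, against 14.0, 16.5 and 14.0 with vehicle (0.35, SE 0.18). Ramp2 passed the thresholds upward and Apln downward, and the others of that list did not pass.

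**Figure D2:**
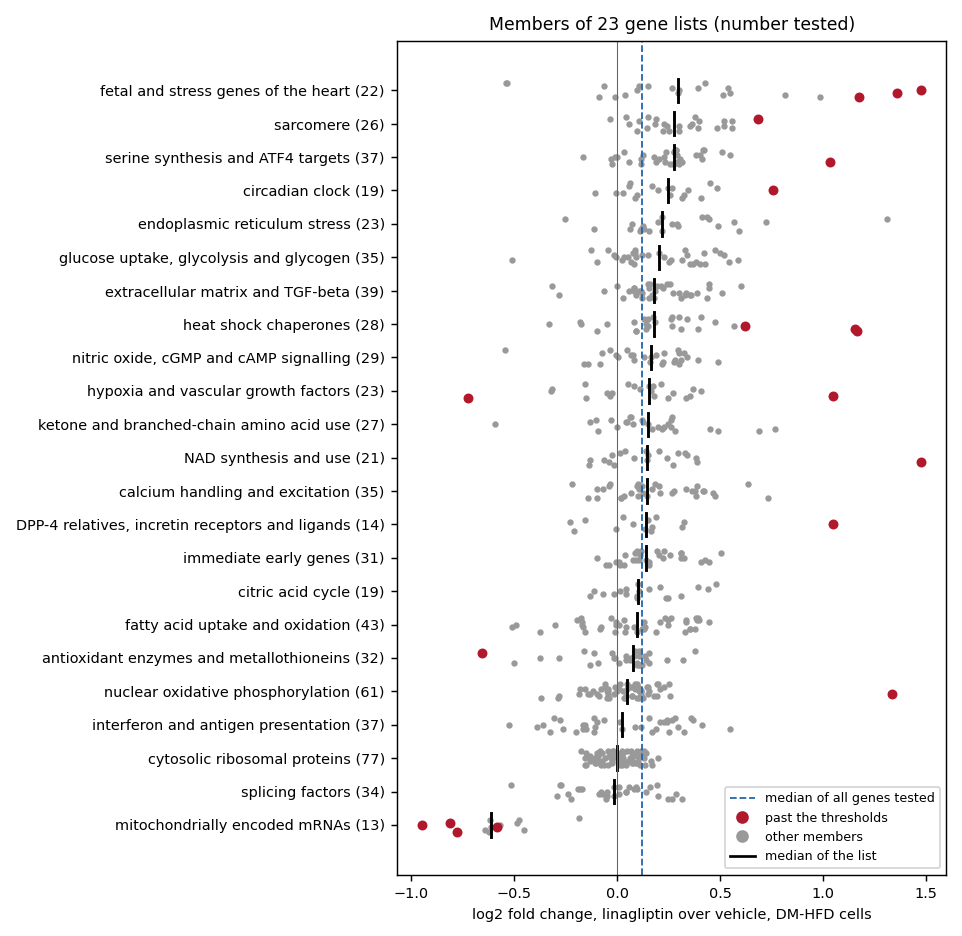
Log2 fold change, linagliptin over vehicle, of each member of 23 gene lists (grey, red where past the thresholds), with the median of a list as a black bar and the median of all 11127 genes (0.12) as a dashed line. Mitochondrially encoded genes all lie below 0 with a median of -0.61, and cytosolic ribosomal proteins centre on 0.00.

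Fatty acid uptake and oxidation had a median of 0.09 (27 of 43 above 0), the citric acid cycle 0.10 (15 of 19), the use of ketones and branched-chain amino acids 0.15 (22 of 27), NAD synthesis and use 0.15 (15 of 21, Nmrk2 past the thresholds) and antioxidant enzymes 0.07 (21 of 32, Glrx lower at the thresholds), against 0.12 for all genes. Of all genes 0.494% were called higher and 0.162% lower. Without linagliptin replicate 2 the medians were 0.21 for fatty acid uptake and oxidation (33 of 43 above 0), 0.24 for the citric acid cycle (19 of 19) and 0.35 for ketones and branched-chain amino acids (25 of 27), against 0.11 for all genes. The 61 nuclear genes of oxidative phosphorylation had a median of 0.05 with 39 above 0, whereas 13 of 61 lay above 0 with median-of-ratios scaling, against 6122 of 11127 of all genes, and Tmem70, which helps to assemble ATP synthase, was the 1 gene of them past the thresholds. The 13 mitochondrially encoded mRNAs all lay below 0 (median -0.61), although mt-Co2 was at 0.10 with quantile scaling and 1 of the 13 lay above 0 with trends over GC content and length removed. In 6 of the 13 every linagliptin library was below every vehicle library, against 0.62% of all genes. These 6 include the 4 past the thresholds (mt-Cytb, mt-Nd4, mt-Co2 and mt-Atp6), where 0.162% of all genes were called lower. mt-Co1, the catalytic subunit of complex IV, had 26509, 32185 and 20571 FPKM with linagliptin, against 37331, 34809 and 34610 with vehicle, and did not pass. The percent of FPKM from these mRNAs was 39.8, 41.4 and 26.5 with linagliptin, against 52.2, 44.1 and 47.1 with vehicle. Medians of other lists also moved without linagliptin replicate 2. Without that library the median of the sarcomere list was 0.54, against 0.28 with it, that of endoplasmic reticulum stress 0.50, against 0.22, and that of serine synthesis and ATF4 targets 0.14, against 0.27. Also without it the median of 39 matrix genes was -0.22 (6 above 0), against 0.18 (35 above 0) with it, that of 37 interferon genes was -0.16, against 0.03, and that of 77 ribosomal proteins was -0.19 (1 above 0), against 0.00 (39 above 0).

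GC content and overlap between genes moved with the calls. Over 5 equal bins of the tested genes by GC content, lowest first, the median log2 fold change was -0.02, 0.07, 0.14, 0.20 and 0.23, and 3, 6, 5, 13 and 27 genes were called higher and 7, 4, 3, 1 and 3 lower. Of the 73 called genes, 10 (13.7%) overlap another listed gene on the same strand, against 369 of 11127 (3.32%): Ramp2, Nudt8, Pagr1a, Adat3, Scamp4, Lbhd1, mt-Atp6, mt-Nd4 and the gene models Gm42417 and AL732309.1. Their fragments could be divided between neighbours, so these genes are uncertain. The transcript deposited under the name of Adat3 has an ID that GENCODE M21 gives to another gene model, so the identity of Adat3 is uncertain as well. Ramp2, for instance, had a log2 fold change of 1.05 in the gene table and 0.11 when its listed transcripts were summed. The part of GC content in the calls was not tested gene by gene; 29 of the 73 were called with trends over GC content and length removed.

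The same genes were set beside their values in control cells. In control cells 25 of 11365 genes passed the thresholds (0.22%), and 2 of the 73 were among them, Tmem70, in the opposite direction, and AL732309.1. Gcdh had a log2 fold change of 0.83 in DM-HFD cells and -0.12 in control cells (difference 0.96, SE 0.19), Paqr7 of 0.98 and -0.64 (difference 1.62, SE 0.50), Esyt2 of -0.59 and 0.34 (difference -0.92, SE 0.26) and Slc10a4 of -1.20 and 0.07 (difference -1.27, SE 0.36). The SE of a difference rests on 1 spread pooled over all 16 libraries. Control libraries varied less, with a median SE of 0.11 over genes, against 0.23 in DM-HFD cells. For Gcdh the SE of the difference is thus below that in DM-HFD cells alone (0.22). Each of these 4 differences had an adjusted p of 0.891 from limma, and by the interaction 0 of 11631 genes passed an adjusted p of 0.05 (0%), with 532 at an unadjusted p under 0.05. Without linagliptin replicate 1 of the DM-HFD cells 18 genes passed, Psat1 and the peroxisomal thiolase Acaa1b among them. Age, diet and streptozotocin differ together between DM-HFD and control mice and cannot be told apart.

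Isoform shares, the percent that a transcript took of the summed FPKM of the listed transcripts of its gene, were tested for 13122 transcripts of 5434 genes. Past a difference of 10 percentage points and an unadjusted p of at most 0.05 were 466 transcripts of 330 genes (3.55%), 236 higher and 230 lower with linagliptin. None passed an adjusted p of 0.05 from limma (0 transcripts, 0%), with 530 at an unadjusted p under 0.05, whereas 9 passed on an arcsine square root scale, 15 with diffSplice of limma and 14 when all 16 libraries shared 1 estimate of the spread. The 2 groups of libraries did not overlap in 1245 transcripts (9.49%), and 439 of these in 312 genes also passed the thresholds (3.35%). In control cells 547 of 13090 transcripts passed the same thresholds (4.18%), with 5 libraries in each group. The genes of the 439 transcripts were of low expression, with a median gene sum of 5.39 FPKM, against 9.04 for all genes tested. Of the 73 genes called by expression, 35 had a tested transcript and 5 were called at both levels, Paqr7, Esyt2, Umad1, Bcl2l1 and Cic. Paqr7-201 took 90.2%, 85.9% and 95.0% of its gene with linagliptin, against 79.6%, 59.6% and 47.8% with vehicle, and Esyt2-205 took 99.0%, 99.6% and 31.3% with linagliptin, against 3.34%, 4.84% and 10.9% with vehicle. The groups did not overlap in either, and linagliptin replicate 3 stood apart in Esyt2.

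Eif4g2, an initiation factor that supports translation without the cap-binding protein, had the largest change of share among genes above 100 FPKM that passed the thresholds, and was picked after its values were seen. Eif4g2-213 (chr7:111067750-111083030, minus strand, 7995 bases) holds all 3548 bases of Eif4g2-206 (chr7:111071932-111083017), a longer end and a coding exon of 114 bases that Eif4g2-206 lacks. That exon (chr7:111076280-111076393, minus strand, GENCODE M21), a multiple of 3 bases, is shown since it separates the encoded proteins.
Eif4g2-213 exon: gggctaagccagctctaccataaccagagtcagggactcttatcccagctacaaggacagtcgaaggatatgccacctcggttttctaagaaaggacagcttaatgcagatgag
Eif4g2-206 took 1.61%, 1.66% and 0.411% of the gene with linagliptin, against 76.4%, 73.0% and 71.4% with vehicle, and Eif4g2-213 took 95.7%, 95.2% and 95.3% with linagliptin, against 22.4%, 25.4% and 27.3% with vehicle. The libraries of each group lay close together and the groups far apart, with a difference of -72.4 points for Eif4g2-206 (SE 7.62, adjusted p = 0.105 from limma). As FPKM, Eif4g2-206 was at 2.21, 1.19 and 0.331 with linagliptin, against 117, 137 and 104 with vehicle, and the log2 fold change of the gene was -0.06 in the gene table and -0.80 when its listed transcripts, which averaged 96.3 ± 35.7 FPKM with linagliptin and 162 ± 22.1 FPKM with vehicle in sum (SD, n = 3 each), were added up. In control cells the same share was 70.3%, 1.99%, 70.1%, 71.5% and 2.38% with linagliptin, against 73.5%, 1.77%, 1.95%, 1.08% and 3.14% with vehicle. Single control libraries of both treatments thus sat at either of the 2 levels, and no control library lay between them.

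**Figure D3:**
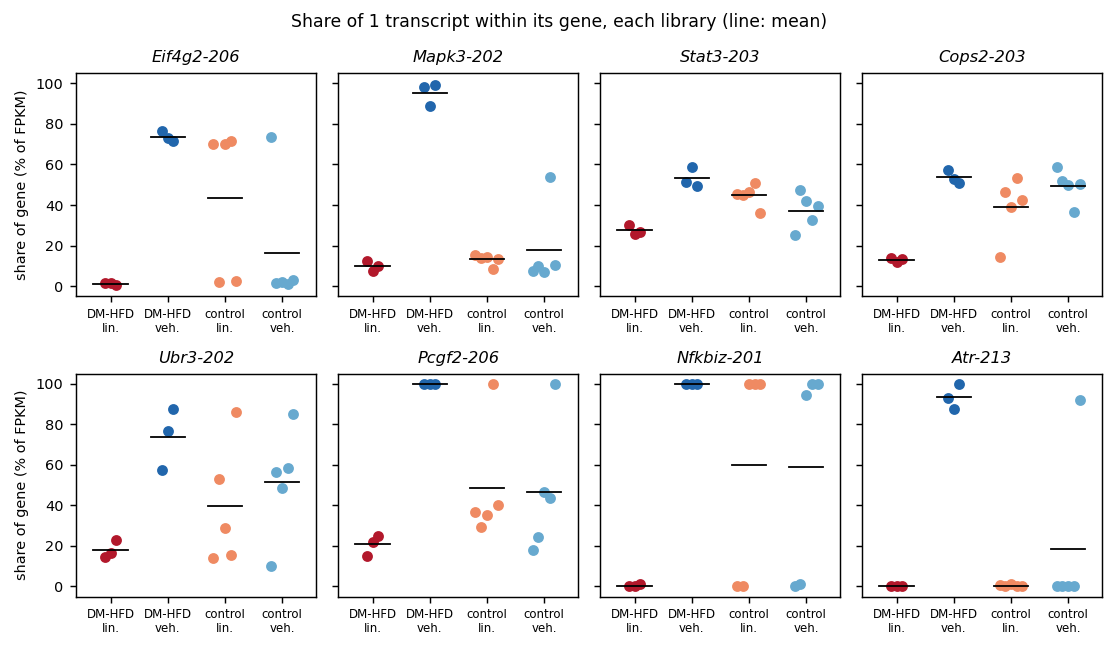
Share in percent of 8 transcripts in each library, DM-HFD linagliptin, DM-HFD vehicle, control linagliptin and control vehicle from left to right, with a line at the mean. DM-HFD groups do not overlap in any of the 8; control libraries of Eif4g2-206 sit either near 2% or above 70%.

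Mapk3, which encodes the kinase ERK1, gave the largest difference of a gene above 10 FPKM. Mapk3-202 (chr7:126759601-126765819, plus strand) encodes the protein from the first exon, and Mapk3-203 (chr7:126760597-126765819) starts downstream and lacks the coding part of that exon, 173 bases at chr7:126759646-126759818 with the start codon in capitals, which is shown because the 2 transcripts differ there.
Mapk3-202 first exon, coding part: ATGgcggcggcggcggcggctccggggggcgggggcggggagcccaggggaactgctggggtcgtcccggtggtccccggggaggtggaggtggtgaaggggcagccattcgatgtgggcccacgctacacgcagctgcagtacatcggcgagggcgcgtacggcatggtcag
Mapk3-202 took 12.3%, 7.60% and 9.93% with linagliptin, against 98.1%, 88.6% and 99.0% with vehicle (difference -85.3 points, SE 9.29, adjusted p = 0.105 from limma). Mapk3-203 took 87.6%, 86.9% and 90.0% with linagliptin, against 0.766%, 11.3% and 0.877% with vehicle. The annotated coding sequence of Mapk3-203 has 798 bases, stop codon included, all within the 1143 of Mapk3-202. In control cells Mapk3-202 took 8.54% to 15.5% in the 5 libraries with linagliptin, against 7.11% to 10.2% in 4 libraries with vehicle and 53.9% in the other, so 9 of 10 control libraries were close to the DM-HFD libraries with linagliptin. The gene had a log2 fold change of 0.29 in the gene table and 0.36 with its listed transcripts summed.

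In 25 genes (0.460% of 5434) the leading transcript of every linagliptin library differed from that of every vehicle library. Some of these pairs differ at a splice site, among other places, and the stretch that only 1 of the 2 transcripts has at that site is shown for 4 of them, from GENCODE M21 on GRCm38, with capitals for the 2 bases that would be the splice signal of the shorter form.
Cops2-203, start of an exon, chr2:125842712-125842732, minus strand: aattctgattttttatgtcAG
Ubr3-202, end of an exon, chr2:69991626-69991637, plus strand: GTaagcatcagt
Ulk1-211, start of an exon, chr5:110790937-110790954, minus strand: ccacccttttcctaccAG
Tnpo3-202, start of an exon, chr6:29554963-29554980, minus strand: ttatctgttttcttacAG
The 4 stretches have 21, 12, 18 and 18 bases, each a multiple of 3, and each pair also differs outside the stretch shown: Cops2-203 has 3392 bases and Cops2-201 has 2073, Ulk1-211 has 3581 and Ulk1-201 has 5213, Tnpo3-202 has 3989 and Tnpo3-201 has 4251, and Ubr3-202 has 8081 and Ubr3-201 has 8072. Cops2, a subunit of the COP9 signalosome, which takes the ubiquitin-like Nedd8 off ubiquitin ligases, had 13.7%, 11.7% and 13.6% as Cops2-203 with linagliptin, against 57.3%, 52.6% and 50.9% with vehicle (difference -40.6 points, SE 6.87, adjusted p = 0.464 from limma). Ubr3, a ubiquitin ligase, had 14.4%, 16.3% and 22.9% as Ubr3-202 with linagliptin, against 57.5%, 76.7% and 87.5% with vehicle. Both passed the thresholds without overlap, yet control libraries ranged from 14.2% to 58.9% for Cops2-203 and from 10.3% to 85.8% for Ubr3-202. Ulk1, a kinase that starts autophagy, had 53.5%, 53.2% and 53.8% as Ulk1-211 with linagliptin, against 21.3%, 49.7% and 49.0% with vehicle, and Tnpo3, which imports splicing factors into the nucleus, had 56.7%, 56.3% and 63.0% as Tnpo3-202 with linagliptin, against 0%, 48.6% and 48.5% with vehicle. Neither Ulk1 nor Tnpo3 passed, and vehicle replicate 1 stood apart in both. Stat3, a transcription factor of cytokine signalling, had 29.9%, 25.7% and 26.9% as Stat3-203 with linagliptin, against 51.5%, 58.6% and 49.6% with vehicle, and passed (difference -25.7 points, SE 8.44). Control libraries ranged from 25.1% to 50.9% for Stat3-203.

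By size of the difference, the 15 transcripts that led had differences of 79.3 to 99.6 points, and all but those of Mapk3 came from genes with sums of 1.06 to 3.56 FPKM. Nfkbiz, which encodes the nuclear I-kappa-B zeta, had 0%, 0.272% and 1.02% as Nfkbiz-201 with linagliptin, against 100%, 100% and 100% with vehicle, from 0.450 to 1.67 FPKM of that transcript with vehicle. Atr, a kinase of the DNA damage response, had 0% as Atr-213 in all 3 linagliptin libraries, against 93.1%, 87.7% and 100% with vehicle. Pcgf2, a Polycomb protein, had 15.2%, 22.1% and 24.9% as Pcgf2-206 with linagliptin, against 100%, 100% and 100% with vehicle. Coro1a and Lcp1, actin proteins of leukocytes, were also among them, with Coro1a-201 at 100%, 100% and 100% with linagliptin, against 0%, 0% and 16.7% with vehicle, and Lcp1-209 at 22.8%, 19.0% and 0.218% with linagliptin, against 100%, 100% and 100% with vehicle. The paired transcripts of Nfkbiz, Pcgf2, Coro1a, Lcp1 and Slc35e2 have the same coding sequence and differ in untranslated parts. Wnt9a, Slc35e2 and Nbeal2 made up the rest of the 15. In the 10 control libraries Nfkbiz-201 was at 0% to 1.00% in 4 and 94.2% to 100% in 6, libraries of both treatments on each side, and Coro1a-201 at 0% to 5.01% in 5 and 100% in 5.

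More abundant genes with a called isoform were listed after their values had been seen, 37 transcripts of 25 genes with sums of at least 30 FPKM and libraries that did not overlap. At any expression 439 of 13122 transcripts tested were called without overlap (3.35%). How many were tested at 30 FPKM or more was not counted, so the 2 levels cannot be compared. Tns1, a focal adhesion protein, had 2.37%, 7.99% and 0.219% as Tns1-217 with linagliptin, against 86.5%, 67.9% and 62.8% with vehicle (difference -68.9 points, SE 9.90, adjusted p = 0.321 from limma), and control libraries ranged from 0% to 76.5%. Igfbp7, a secreted growth factor binding protein, had 38.0%, 32.8% and 22.9% as Igfbp7-202 with linagliptin, against 0.835%, 0% and 0.0977% with vehicle. Hmox2, the constitutive haem oxygenase, had 39.1%, 40.8% and 36.9% as Hmox2-202 with linagliptin, against 17.6%, 13.4% and 21.9% with vehicle. In control libraries Igfbp7-202 took up to 45.7% and Hmox2-202 took 12.3% to 40.7%. Sept7-201, of a septin of the cytoskeleton, took 29.1%, 33.0% and 48.8% with linagliptin, against 0.224%, 18.9% and 11% with vehicle, and the linagliptin values exceeded the control range of 0.212% to 20.4%. Psmd11-205, of a proteasome subunit, took 8.30%, 13.2% and 20.2% with linagliptin, against 0%, 1.04% and 0.690% with vehicle, and Morf4l2-215, of a chromatin protein, 55.1%, 71.8% and 70.3% with linagliptin, against 2.27%, 31.4% and 33.9% with vehicle. Control libraries spanned 1.78% to 14.2% for Psmd11-205 and 46.5% to 67.7% for Morf4l2-215. The vehicle libraries of DM-HFD cells lay below both ranges. The 5 most expressed genes whose leading transcript differed between the group means, Atp5g3, Ndrg2, Eif5a, Hspa8 and Rps28, had overlapping libraries and did not pass. Hspa8, the constitutive Hsc70, had 88.9%, 91.2% and 92.7% as Hspa8-202 with linagliptin, against 14.2%, 16.1% and 90.2% with vehicle.

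Within the gene lists the called isoforms are set against the 3.55% of all transcripts tested. None of 43 sarcomere transcripts, 37 heat shock transcripts, 89 ribosomal protein transcripts or 21 transcripts of fetal and stress genes passed. Of 65 calcium handling transcripts Cacna1c-207, of the L-type calcium channel, passed with 39.0%, 12.2% and 18.0% with linagliptin, against 72.9%, 70.2% and 40.6% with vehicle. Of 36 transcripts of nitric oxide and cyclic nucleotide signalling Nos3-201, of endothelial nitric oxide synthase, passed with 81.3%, 54.8% and 86.6% with linagliptin, against 95.9%, 98.9% and 92.3% with vehicle, as did Prkacb-202. Control libraries spanned 32.4% to 78.5% for Cacna1c-207 and 54.7% to 100% for Nos3-201. Pnpla2-202, of the triglyceride lipase ATGL, took 10.6%, 31.3% and 17.6% with linagliptin and was listed at 0% in all 3 vehicle libraries, Txnip-202, of the thioredoxin-interacting protein, took 35.9%, 53.7% and 40.0% with linagliptin, against 23.5%, 13.6% and 15.1% with vehicle, and Syvn1-203, of a ubiquitin ligase of the endoplasmic reticulum, took 27.0%, 79.9% and 62.8% with linagliptin, against 0%, 17.9% and 0% with vehicle. In control libraries Pnpla2-202 took 0% to 14.8%, Txnip-202 took 27.0% to 53.7% and Syvn1-203 took 0% to 53.0%. For Txnip-202 the linagliptin libraries of DM-HFD cells lay inside that range and the vehicle libraries below it. Antioxidant genes had 3 called transcripts of 39 tested (7.69%; Txnip-201, Txnip-202 and Gss-201), interferon genes 4 of 44 (9.09%; Oasl2-201, Igtp-201, Igtp-203 and Irf9-205), nitric oxide and cyclic nucleotide signalling 2 of 36 (5.56%), endoplasmic reticulum stress 1 of 24 (4.17%) and splicing factors 1 of 80 (Srsf1-205).

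Shares varied widely inside groups. The range over the 3 libraries of a group exceeded 50 points in 2017 transcripts with linagliptin (15.4%) and in 2151 with vehicle (16.4%). The libraries of one group named more than 1 leading transcript in 1891 genes with linagliptin (34.8%) and in 1890 genes with vehicle (34.8%). By group means the leading transcript differed in 918 genes (16.9%) between linagliptin and vehicle in DM-HFD cells, against 608 (11.2%) in control cells. Control means rest on more libraries per group, which alone can lower such a count. The percents of DM-HFD and control cells therefore cannot be compared. Of the 439 transcripts past the thresholds without overlap, 170 (38.7%) had a range over 50 points among the 10 control libraries, against 28.6% of all tested, and for 229 (52.2%) both DM-HFD group means lay inside the control range. The last percent was not counted over all transcripts tested, so it cannot be read as high or low for called ones. In the 309 genes with 1 transcript higher and another lower, at least 1 of them past the thresholds, both had the same coding sequence in 80 (25.9%), against 1024 of 4570 tested genes (22.4%), and the one higher with linagliptin was the longer in 109 (35.3%), against 2006 of 4570 (43.9%). How far the division of fragments between isoforms moved these shares was not tested.

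**Figure D4:**
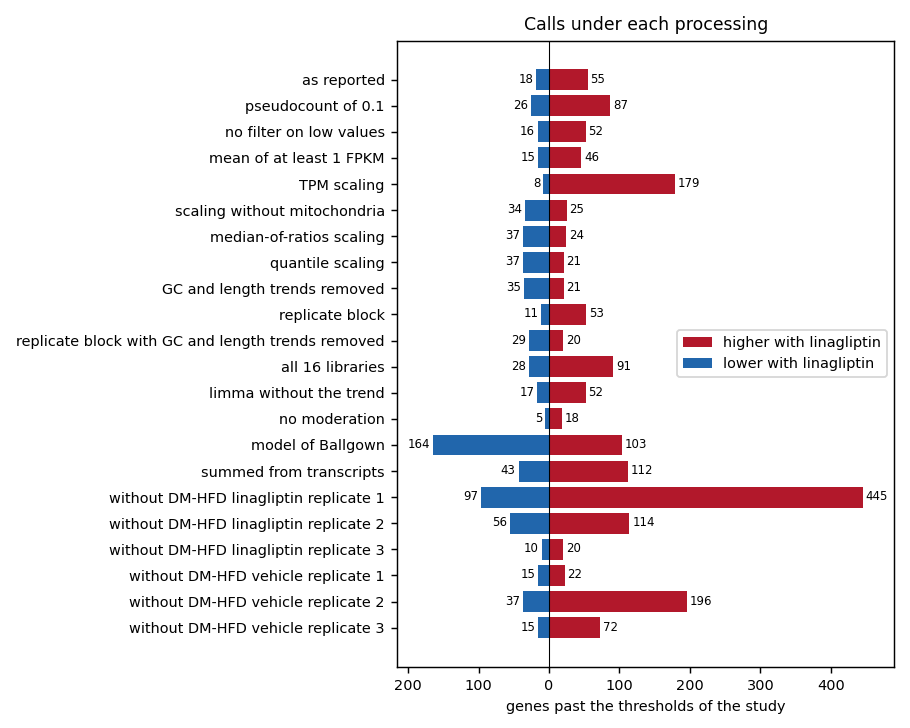
Genes past the thresholds, higher and lower with linagliptin, under each way of processing and without each library in turn. The total is 73 in the fit described and lies between 23 without moderation of the variances and 542 without linagliptin replicate 1.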

How the data were processed

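Polyadenylated RNA of primary cultured adult cardiomyocytes was prepared with a stranded kit and sequenced in 16 libraries, 6 of which enter the comparison. Per the methods and the submitters' processing notes, the authors checked reads with FastQC 0.11.7, trimmed them with cutadapt, aligned them to GRCm38 with HISAT2 2.1.0 and estimated abundance with StringTie 1.3.3 and Ballgown. The deposited values are FPKM of 11631 protein-coding genes and 23055 transcripts, each averaging 0.5 FPKM or more in 1 of the 4 conditions or more; the gene FPKM is not the plain sum of its transcripts. FPKM are not counts, so no count model was used, depth is unknown, and precision rests on the spread of the replicates.

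Genes averaging 0.5 FPKM or more in either group were compared with limma 3.58.1 (R 4.3.3) on log2(FPKM + 1), two-sided, with variances following the trend over expression and Benjamini-Hochberg adjustment over all genes tested; the added 1 FPKM draws fold changes of low genes toward 1. Isoform shares were tested with limma for transcripts with a mean share of at least 5% in genes with at least 2 listed transcripts and a mean sum of at least 1 FPKM. The response in DM-HFD cells was set against that in control cells by an interaction over all 16 libraries. The share of mitochondrial mRNA was compared by an exact permutation test. Both fits were tested on simulated data. Transcript structures came from GENCODE M21 (22994 of 23055 transcripts matched by ID, 21939 at the same position) and promoters from RefSeq (GRCm38.p6). Named genes were the 15 highest and 10 lowest called genes with a name and without overlap, called members of the gene lists, genes called without each library in turn, and a set named whatever their values; other genes are given for their roles and were chosen after their values were seen. Named isoforms were the 15 largest differences past the thresholds without overlap and the 5 most expressed genes whose leading transcript differed; others were chosen after their values were seen. The comparison, the lists and the named members were chosen with earlier results of these data known. Alternatives were other pseudocounts, filters and scalings (TPM, without mitochondria, median of ratios, quantile, GC and length trends removed). Transcripts were also summed, a replicate block was fitted and each library was left out. Other models were no moderation, the model of Ballgown rebuilt in limma, no trend, all 16 libraries and diffSplice.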

Additional observations from a re-analysis of the deposited data

Results flagged for a closer look

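Of the isoform shares tested, 1 per gene and not all that the report names, 6 had a control library far from the other 4 of its group. Dixon's test of the gap to the nearest library over the range of the group was used. Its rate of about 1 in 20 groups by chance holds for normally distributed values. Shares are bounded and some sit near either of 2 levels, so the rate by chance is unknown here. The DM-HFD groups of 3 libraries cannot be tested this way. Control vehicle replicate 1 had 73.5% as Eif4g2-206, control vehicle replicate 4 had 53.9% as Mapk3-202, and control vehicle replicate 5 had 92.2% as Atr-213. Control linagliptin replicate 4 had 100% as Pcgf2-206, control linagliptin replicate 2 had 100% as Lcp1-209, and control linagliptin replicate 3 had 48.4% as Nbeal2-210.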

How the results depend on the processing

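Against 73 genes past the thresholds (55 higher, 18 lower), 113 passed with a pseudocount of 0.1 (87 and 26) and 187 with TPM (179 and 8). With all 16 libraries in the fit 119 passed (91 and 28), without moderation 23 (18 and 5) and with transcripts summed 155 (112 and 43). The model of Ballgown, rebuilt in limma, gave 267 (103 and 164, of which 8 were among the 73). Without each library in turn 30 (without linagliptin replicate 3) to 542 (without linagliptin replicate 1) passed, with 170 without linagliptin replicate 2, 37 without vehicle replicate 1, 233 without vehicle replicate 2 and 87 without vehicle replicate 3. The other settings gave 49 to 69, with more lower than higher genes when scaled without mitochondria, by median of ratios or by quantiles, or with GC and length trends removed. At the adjusted p of 0.05 from limma 1 gene passed with GC and length trends removed (Adat3, of uncertain identity, adjusted p = 0.00964) and 0 to 1 without each library (Gm42417 without linagliptin replicate 2, adjusted p = 0.000956). Isoform shares past the thresholds were 466, against 279 with a gene sum of at least 5 FPKM, 807 with diffSplice, 869 with all 16 libraries and 521 to 637 without each library. At the adjusted p, 9 isoforms passed on the arcsine square root scale, 15 with diffSplice and 14 with all 16 libraries, among them Eif4g2-206 on the arcsine scale and with diffSplice and Mapk3-202 with diffSplice and all 16 libraries; without each library 0 passed. By the interaction, 0 to 18 genes passed without each library in turn. The difference in the share of mitochondrial mRNA, -11.9 percentage points (two-sided exact permutation p = 0.1, which no arrangement of 20 can go below), was -14.7 to -7.17 without each library. mt-Co2 turned to 0.10 with quantile scaling. Over the alternatives run, single genes named, called or not, were rated the same in 781, and called ones lost the call in 191. Single isoforms were rated the same in 269 and lost the call in 16. The same here means that a call was kept or that an uncalled member stayed uncalled. For uncalled members it includes changes of sign that moved the value by less than its SE. The causes were not tested.

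Deviations from the group means correlated by -0.17, -0.60 and 0.18 between libraries of the same replicate number, and not every library correlated best with its own number. The numbers were therefore not used as pairs in the main fit. With 3 libraries per group these correlations cannot tell whether cultures of the same number shared a heart or an isolation. With the number as a replicate block 64 genes passed the thresholds (53 higher, 11 lower) and 409 isoforms, and the share of mitochondrial mRNA had p = 0.25 (exact permutation within numbers, 8 regroupings). A difference that missed the thresholds is not shown to be absent.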
